A study of Mus musculus with 13 samples.

Results

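The miRNAs described here are those whose genes lie inside the mouse Hox clusters. They were chosen by name, as every arm of the 6 hairpins mmu-mir-10a, mmu-mir-10b, mmu-mir-196a-1, mmu-mir-196a-2, mmu-mir-196b and mmu-mir-615, out of 903 hairpins with a read in any library. The 6 hairpins give 11 different mature miRNAs, of which 7 were read in at least 1 library, out of 1384 mature miRNAs read in the whole series. Small RNA libraries were made from hippocampus (3 TgR, 3 FVB/N animals) and prefrontal cortex (PFC; 4 TgR, 3 FVB/N animals). TgR mice carry human AChE-R, the readthrough splice variant of acetylcholinesterase, on the FVB/N background and express it constitutively from a minimal cytomegalovirus promoter-enhancer. FVB/N mice are the wild type parent strain. The labels number the libraries within each group, by animal for PFC only. They give no age and do not state whether both regions were taken from the same mice.

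Hox genes are arranged in 4 clusters, and their order along the chromosome follows the order of the body regions in which they act. The miRNAs between and inside these genes are known to follow the same logic, with high levels in spinal cord, hindbrain and other caudal tissues and low levels in the forebrain, and several of them are known to repress Hox transcripts. Hippocampus and PFC are both forebrain. In bulk tissue, fewer cells that make a miRNA and less of it per cell cannot be told apart.

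All 11 mature miRNAs were found in the RefSeq table of GRCm38.p6. The sequences below are the arms with the most reads, shown because members of a pair differ by a single base and are told apart by that base alone. Capitals mark the seed, bases 2 to 8 counted from the 5′ end, which pairs with target transcripts.
mmu-miR-10a-5p: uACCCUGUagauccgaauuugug
mmu-miR-10b-5p: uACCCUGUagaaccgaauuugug
mmu-miR-196a-5p: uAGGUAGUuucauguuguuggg
mmu-miR-196b-5p: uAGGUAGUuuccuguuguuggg
mmu-miR-615-3p: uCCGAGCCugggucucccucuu
mmu-miR-99a-5p: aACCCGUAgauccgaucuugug
mmu-miR-100-5p: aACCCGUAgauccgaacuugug
The miR-10 pair shares its seed and differs by U12A (miR-10a-5p first, positions from 1 at the 5′ end). The miR-196 pair shares another seed and differs by A12C (miR-196a-5p first). No other mouse miRNA in the table has either seed, and miR-615-3p has a seed of its own. The last pair are relatives of miR-10 from outside the Hox clusters, listed because they resemble it: miR-99a-5p is 4 edits from miR-10a-5p and 5 from miR-10b-5p, miR-100-5p is 3 and 4 edits away, and both carry a seed that differs from that of miR-10.

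In the GENCODE annotation of GRCm38, mmu-mir-10a lies on the plus strand of chromosome 11 (96317165 to 96317274), between Hoxb5 and Hoxb4, with Hoxb4 993 bases away. Further along the same cluster lies mmu-mir-196a-1 (96265164 to 96265265, plus strand), 6192 bases before Hoxb9. Neither of the hairpins overlaps another gene. The hairpin mmu-mir-10b lies on chromosome 2 (74726070 to 74726137, plus strand) in introns of transcripts assigned to Hoxd4 and Hoxd3. On chromosome 15, mmu-mir-196a-2 (102973350 to 102973434, plus strand) lies 1457 bases after Hoxc10 and 3005 bases before Hoxc9, and mmu-mir-615 (103014910 to 103015001, plus strand) lies between Hoxc6 and Hoxc4. Both fall in introns of transcripts assigned to Hoxc5. The hairpin mmu-mir-196b lies on the minus strand of chromosome 6 (52230081 to 52230165), 1032 bases from Hoxa10, and overlaps an exon of a Hoxa9 transcript. The members therefore come from all 4 clusters. The miR-10 and miR-196 families are each spread over several of them, and miR-615 has a single hairpin.

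The deposited values are read counts, which were scaled to CPM (counts of a library brought to a common total) with TMM factors over all 13 libraries. Counting every mature miRNA once, library totals ran from 5350259 counts (TgR PFC replicate 2) to 11111883 (TgR hippocampus replicate 1). At these depths 3 counts, which a reading of 0 still allows and which serve as the floor here, correspond to 0.265 to 0.545 CPM. The members together received 8540 counts over all libraries, between 0.00281% and 0.0113% of a library. miR-10a-5p and miR-10b-5p made up 98.2% of these counts, and the other 5 arms that were read shared the remaining 157. By mean CPM over the libraries, miR-10a-5p ranked 270 and miR-10b-5p ranked 331 among the 1384 mature miRNAs. Only this pair passed edgeR's filter on low counts, so the tests below are on 2 of 11 members unless the filter is said to be left out. Exact intervals of counts and floors given below cover counting error only, since the reads carry no molecular identifiers, while the intervals of fold changes from edgeR include the spread between animals.

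miR-10a-5p is the main arm of the HoxB hairpin. In FVB/N hippocampus its counts were 212, 523 and 635, or 27.0, 52.8 and 80.2 CPM. In TgR hippocampus the counts were 424, 359 and 610, or 38.3, 38.9 and 53.9 CPM. The TgR values lay inside the range of the FVB/N values. In FVB/N PFC the counts were 361, 197 and 451, or 35.8, 28.8 and 50.5 CPM. In TgR PFC they were 586, 176, 578 and 658, or 61.7, 32.0, 61.3 and 63.5 CPM. In TgR PFC 3 of the 4 libraries were above all FVB/N PFC libraries, while replicate 2 lay among them. The group means, from high to low, were 54.6 ± 15.1 CPM in TgR PFC (SD, n = 4), 53.4 ± 26.6 in FVB/N hippocampus (SD, n = 3), 43.7 ± 8.83 in TgR hippocampus (SD, n = 3) and 38.3 ± 11.1 in FVB/N PFC (SD, n = 3). Each group overlapped the next in this order.

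miR-10b-5p is the main arm of the HoxD hairpin and, relative to its mean, was the more variable of the pair in hippocampus only. Its SD was 112% and 43.7% of the mean in FVB/N and TgR hippocampus, against 49.9% and 20.2% for miR-10a-5p. In FVB/N and TgR PFC it was 27.5% and 27.2%, against 28.9% and 27.7% for miR-10a-5p. In FVB/N hippocampus its counts were 18, 58 and 203, or 2.29, 5.85 and 25.7 CPM, an 11.2-fold range within a group. In TgR hippocampus the counts were 212, 72 and 229, or 19.2, 7.81 and 20.2 CPM. The highest and the lowest hippocampal library were both FVB/N. In FVB/N PFC the counts were 213, 101 and 233, or 21.1, 14.8 and 26.1 CPM. In TgR PFC they were 261, 174, 323 and 516, or 27.5, 31.6, 34.3 and 49.8 CPM. All TgR PFC libraries were above all other libraries of the series. The means ran from 35.8 ± 9.73 CPM in TgR PFC (SD, n = 4) to 20.6 ± 5.68 in FVB/N PFC, 15.7 ± 6.88 in TgR hippocampus and 11.3 ± 12.6 in FVB/N hippocampus (SD, n = 3 each). Except for the first step, neighbouring groups in this order overlapped.

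**Figure D1:**
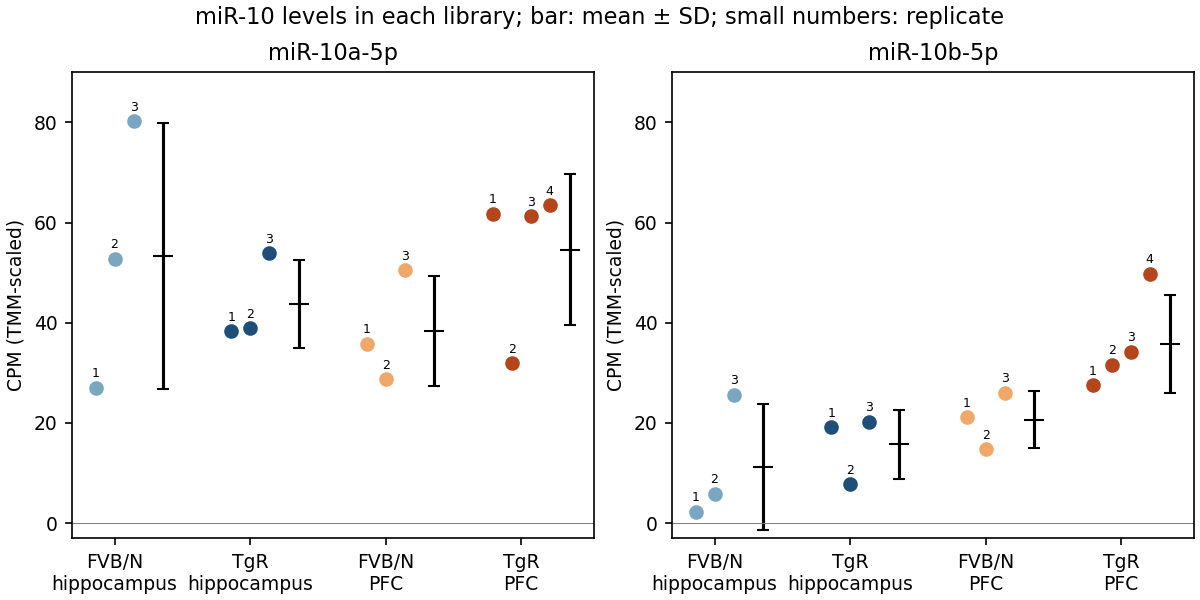
Level of miR-10a-5p (left) and miR-10b-5p (right) in each library, in TMM-scaled CPM, for the 4 groups. Points are libraries with their replicate numbers, and bars are mean ± SD. The miR-10b-5p points of TgR PFC, 27.5 to 49.8 CPM, lie above all others, and the FVB/N hippocampus points spread from 2.29 to 25.7 CPM.

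The first comparison asks whether AChE-R overexpression goes with a change of these miRNAs in hippocampus, a target region of cholinergic neurons. miR-10a-5p was lower in TgR by a log2 fold change of -0.32 (SE 0.35) and miR-10b-5p higher by 0.45 (SE 0.69), neither told from 0 (edgeR quasi-likelihood test, Benjamini-Hochberg adjusted p = 0.657 and 0.765). edgeR called 0 of the 2 members, against 4.85% of the 619 mature miRNAs tested, and DESeq2 also called 0. By edgeR 0 members were at an unadjusted p under 0.05, against 108 of all 619 tested. In 0 of the 2 the groups did not overlap, against 22.3% of all tested. The 95% intervals ran from -1.10 to 0.47 for miR-10a-5p and from -1.11 to 2.00 for miR-10b-5p. Both signs rested on a single FVB/N library: without FVB/N hippocampus replicate 3 the value of miR-10a-5p was 0.13, and without replicate 1 that of miR-10b-5p was -0.0391. Without replicate 3 the value of miR-10b-5p was 1.92, with an unadjusted p of 0.00735 and an adjusted p of 0.151 by edgeR with Benjamini-Hochberg adjustment.

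In PFC both members had higher means in TgR. miR-10b-5p was 1.72-fold higher, a log2 fold change of 0.79 (SE 0.27), and each of the 4 TgR libraries exceeded all FVB/N ones. miR-10a-5p was 1.42-fold higher, a log2 fold change of 0.50 (SE 0.29). edgeR gave an unadjusted p of 0.0189 for miR-10b-5p, which did not pass the adjustment over 628 tested miRNAs (Benjamini-Hochberg adjusted p = 0.999 for both members). It called 0 of the 2 members, against 0.159% of all tested, and DESeq2 called 0 with 1 at an unadjusted p under 0.05. By edgeR 1 of the 2 was at an unadjusted p under 0.05, against 20 of all 628 tested. Non-overlap of the groups was seen for 1 of the 2, against 4.78% of all tested. The log2 fold change of miR-10b-5p was 0.58 without TgR PFC replicate 4, the library with the highest count, and 0.58 to 0.99 with each library left out in turn.

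The difference of the genotype effects between regions was tested directly over all libraries, as the hippocampal minus the PFC effect. It was -0.80 on the log2 scale for miR-10a-5p (SE 0.49) and -0.30 for miR-10b-5p (SE 0.83), neither past the threshold (edgeR, Benjamini-Hochberg adjusted p = 0.766 and 0.962). Members called were 0 of 2, against 0.464% of 647 tested, and 0 by DESeq2. By edgeR 0 members were at an unadjusted p under 0.05, against 55 of all 647 tested. The genotype effects of the 2 regions are thus not shown to differ for either miRNA. The value of miR-10b-5p was 1.15 without FVB/N hippocampus replicate 3, so its sign also rests on that library.

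Region was compared within each genotype, as hippocampus against PFC. miR-10b-5p had lower means in hippocampus than in PFC in both genotypes, by a log2 fold change of -0.88 (SE 0.61) in FVB/N and of -1.18 (SE 0.57) in TgR. miR-10a-5p was at 0.47 (SE 0.36, 0.016 to 0.80 over all alternatives) in FVB/N and at -0.32 (SE 0.33, -0.55 to -0.22) in TgR. None passed the threshold (edgeR, Benjamini-Hochberg adjusted p = 0.458 and 0.239 for miR-10b-5p, 0.494 and 0.637 for miR-10a-5p). In FVB/N, 0 of 2 members were called, against 7.57% of 647 tested, and the libraries separated without overlap for 0 of 2, against 21.02%. In TgR, 0 of 2 were called, against 10.2%, and the libraries separated for 1 of 2, miR-10b-5p, against 27.4%. The comparisons of region and of genotype share libraries and are not independent of each other.

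The region effect averaged over the genotypes was added after the data had been seen. For miR-10b-5p it was -1.03 (SE 0.42), a fold of 0.489 (95% interval 0.262 to 0.911), with an unadjusted p of 0.0273 and an adjusted p of 0.107 by edgeR with Benjamini-Hochberg adjustment. For miR-10a-5p it was 0.08 (SE 0.24, adjusted p = 0.860). Members called were 0 of 2, against 19.2% of 647 tested. By edgeR 1 of the 2 was at an unadjusted p under 0.05, against 201 of all 647 tested. DESeq2 called 0 members, with 1 at an unadjusted p under 0.05. The libraries of both genotypes together separated for 0 of 2, against 7.42%. FVB/N hippocampus replicate 3, at 25.7 CPM, was the hippocampal library closest to PFC. Without it, miR-10b-5p passed the threshold both in FVB/N (log2 fold change -2.36, adjusted p = 0.0192, over all alternatives 0.0192 to 0.766) and averaged over genotypes (-1.79, adjusted p = 0.00191, over all alternatives 0.00191 to 0.246). Each library was left out in turn, and this one is named because the call changes without it. Averaged over genotypes, miR-10b-5p was also called by edgeR with no filter (-1.04, Benjamini-Hochberg adjusted p = 0.00550) and with a replicate block (-1.20, adjusted p = 0.0199). With no filter it was also called in TgR (-1.15, adjusted p = 0.0493). Averaged over genotypes, its unadjusted p by edgeR was 0.0273 with the filter and 0.000278 without it, at nearly the same effect. None of these calls was set against the share of all miRNAs called in the same fit.

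**Figure D2:**
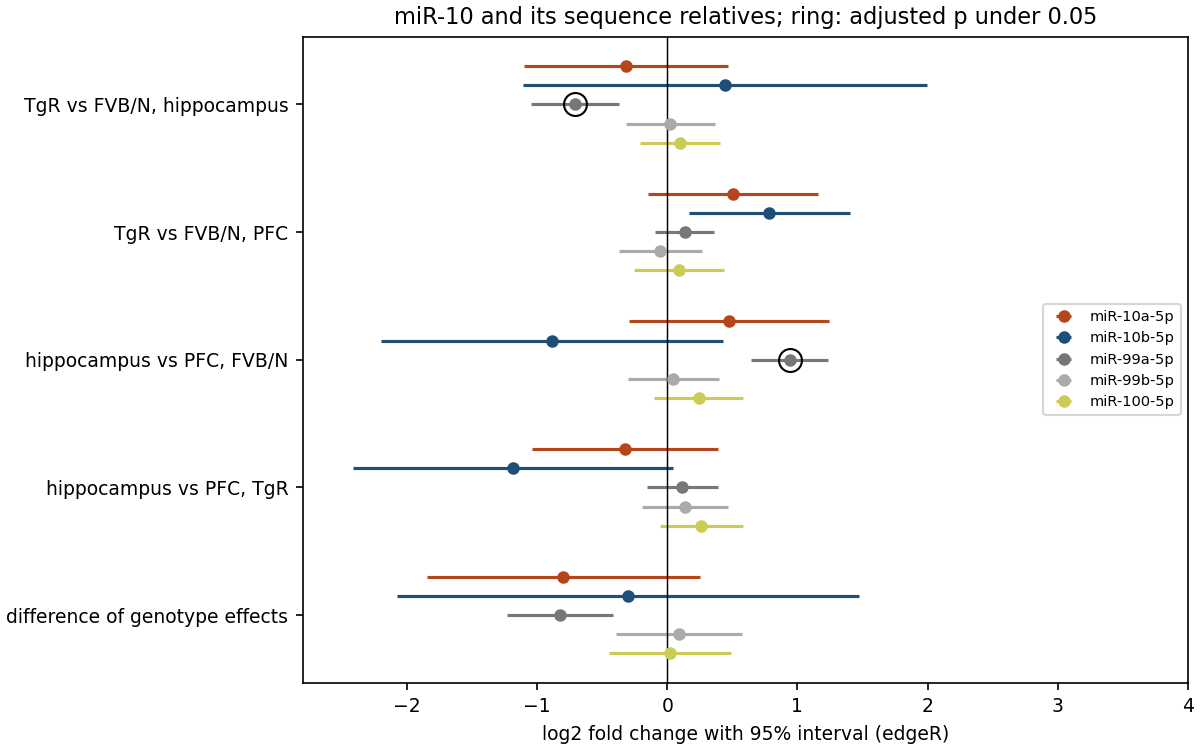
Log2 fold changes of miR-10a-5p, miR-10b-5p and their sequence relatives in the 5 planned comparisons, with 95% intervals from edgeR. A ring marks an adjusted p under 0.05. All rings are on miR-99a-5p, and the intervals of miR-10b-5p are the widest in the comparisons that involve hippocampus.

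A ratio of counts within a library does not depend on scaling, and the ratio of miR-10a-5p to miR-10b-5p was computed for each library. In FVB/N hippocampus it was 11.8, 9.02 and 3.13, and in TgR hippocampus 2.00, 4.99 and 2.66. In FVB/N PFC it was 1.69, 1.95 and 1.94, and in TgR PFC 2.25, 1.01, 1.79 and 1.28. The exact 95% interval was widest in FVB/N hippocampus replicate 1, from 7.27 to 20.3, where miR-10b-5p had 18 counts. miR-10a-5p was thus the more abundant of the pair in all libraries but TgR PFC replicate 2, where the interval of the ratio, 0.816 to 1.25, included 1. The ratio was above 2.25 in 5 of 6 hippocampal libraries, while TgR hippocampus replicate 1 lay inside the PFC range.

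The geometric mean of the ratio was 4.55 over the 6 hippocampal libraries and 1.65 over the 7 PFC libraries, a 2.76-fold difference or 1.46 on the log2 scale. An exact two-sided permutation test over the 1716 assignments gave p = 0.00233, adjusted p = 0.00699 by Benjamini-Hochberg over the 3 tests of the ratio. With each library left out in turn the difference stayed between 1.19 and 1.70, with exact adjusted p from 0.00649 to 0.0152. This test treats the libraries as independent, and whether hippocampus and PFC of a mouse were both used is not stated. Within a genotype, the difference was 1.90 in FVB/N, where all 3 hippocampal libraries were above all 3 PFC libraries (exact permutation p = 0.1, the smallest such groups allow), and 0.98 in TgR, where the regions overlapped (exact permutation p = 0.114). These 2 values were computed for description and were not adjusted.

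Between genotypes the ratio was not shown to differ. In hippocampus the geometric mean was 2.98 in TgR and 6.93 in FVB/N, a log2 difference of -1.21 (exact two-sided permutation p = 0.2, adjusted p = 0.3, where the smallest p possible is 0.1). In PFC it was 1.51 and 1.86, a log2 difference of -0.30 (exact two-sided permutation p = 0.457, adjusted p = 0.457, where the smallest p possible is 0.0571). With each library left out in turn, the difference ran from -1.79 to -0.83 in hippocampus and from -0.49 to -0.11 in PFC.

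Since the pair differs by U12A alone, reads of one could be counted at the other. How the counting treated such reads was not tested. In FVB/N hippocampus replicate 1 miR-10b-5p was at 8.49% of miR-10a-5p, from 18 and 212 counts, and in the rest of the libraries at 11.1% to 98.9%.

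**Figure D3:**
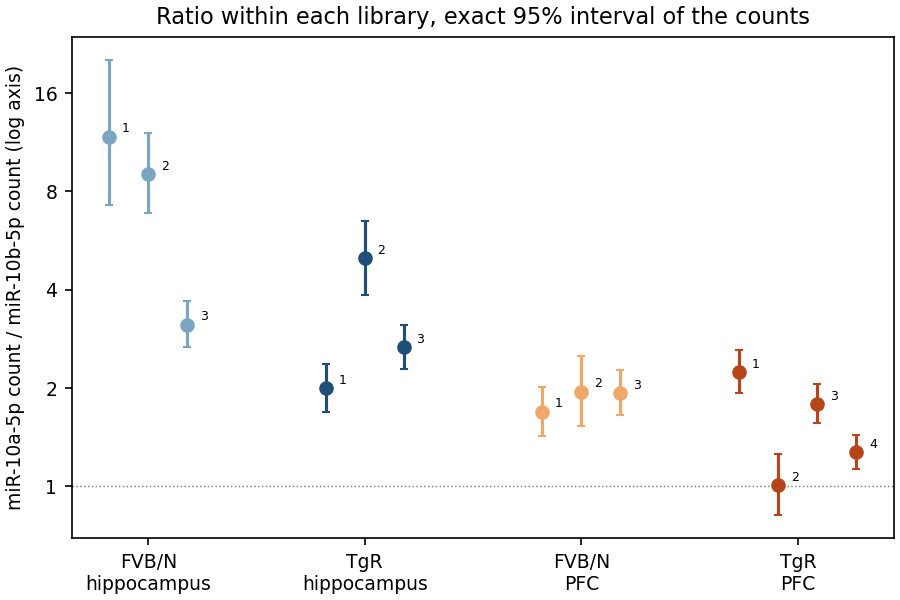
Count of miR-10a-5p divided by that of miR-10b-5p in each library (log axis), with the exact 95% interval of the counts. The dotted line marks equal counts. PFC libraries lie between 1.01 and 2.25 and hippocampal libraries between 2.00 and 11.8.

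The star arms of the pair, cut from the opposite side of the hairpin, were nearly absent. miR-10a-3p had 37 counts in all, 0.637% of the reads of its hairpin, with 0, 4 and 14 in FVB/N hippocampus and 0 to 3 elsewhere. miR-10b-3p had 15 counts, 0.571%, with 0 to 4 in a library. The highest miR-10a-3p count fell in FVB/N hippocampus replicate 3, the library with the highest miR-10a-5p level.

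The HoxB and HoxC hairpins of miR-196a give the same mature sequence, so its reads cannot be assigned to either cluster, and the files list it at both. At mmu-mir-196a-2 the counts were 0 in all 6 hippocampal libraries, 0, 0 and 5 in FVB/N PFC, and 0, 1, 0 and 27 in TgR PFC. At mmu-mir-196a-1 the 3 libraries with reads had 4, 1 and 20. TgR PFC replicate 4 thus held 27 of the 33 counts at mmu-mir-196a-2, or 2.60 CPM (exact 95% interval 1.72 to 3.79), 4.66-fold above the next library. miR-196b-5p, from HoxA, had 2, 0 and 3 counts in FVB/N hippocampus, 1, 0 and 2 in TgR hippocampus, 4, 1 and 4 in FVB/N PFC, and 4, 0, 3 and 10 in TgR PFC. miR-196b-5p, which A12C separates from miR-196a-5p, was thus also read in libraries with 0 counts of the latter. miR-615-3p, from the Hoxc5 intron, had 3, 4 and 1 counts in FVB/N hippocampus, 0, 4 and 7 in TgR hippocampus, 1, 1 and 2 in FVB/N PFC, and 2, 1, 0 and 12 in TgR PFC.

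For all 3 of these miRNAs the highest count of the 13 libraries was that of TgR PFC replicate 4, with 0.965 CPM for miR-196b-5p (exact 95% interval 0.463 to 1.77) and 1.16 CPM for miR-615-3p (0.598 to 2.02). Most other counts were at or under the floor of 3, so no fold between groups is given for these miRNAs. Without the filter on low counts, edgeR called miR-196a-5p lower in hippocampus than in PFC in TgR (Benjamini-Hochberg adjusted p = 0.0168). It was also called averaged over genotypes (adjusted p = 0.0151). Of its 33 counts, 27 were those of TgR PFC replicate 4. Neither call was set against the share of all miRNAs called in the same fit. Without replicate 4, a choice made after seeing the data, the mean of TgR PFC was 0.0606 CPM for miR-196a-5p in place of 0.697, 0.131 CPM for miR-615-3p in place of 0.387, and 0.247 CPM for miR-196b-5p in place of 0.426. The remaining arms, miR-196a-1-3p, miR-196a-2-3p, miR-196b-3p and miR-615-5p, had 0 counts in all 13 libraries, which allows up to 3 counts or 0.265 to 0.545 CPM in a library.

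The same library stood apart in miRNAs of skeletal muscle, all 4 of which were read. miR-1a-3p, the most abundant of the list, was at 1903 CPM in TgR PFC replicate 4 and at 279 to 678 CPM in the 12 other libraries. miR-206-3p, known from skeletal muscle, was at 34.2 CPM against 0.363 to 15.3, and miR-133a-3p at 75.8 CPM against 16.7 to 41.9. miR-133b-3p, at 2.32 CPM, was not highest there. The summed level of the list was 395, 458 and 301 CPM in FVB/N hippocampus, 621, 680.1 and 736 in TgR hippocampus, 520.2, 343 and 650.1 in FVB/N PFC, and 516, 433, 394 and 2015 in TgR PFC. None of the 4 was at 0 in any library, and the part of such RNA in the reads of miR-196a-5p, miR-196b-5p, miR-615-3p and miR-10b-5p was not tested. For miR-10b-5p the other 3 TgR PFC libraries were also above FVB/N PFC. Its log2 fold change in PFC was 0.79 with TgR PFC replicate 4 and 0.58 without it.

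**Figure D4:**
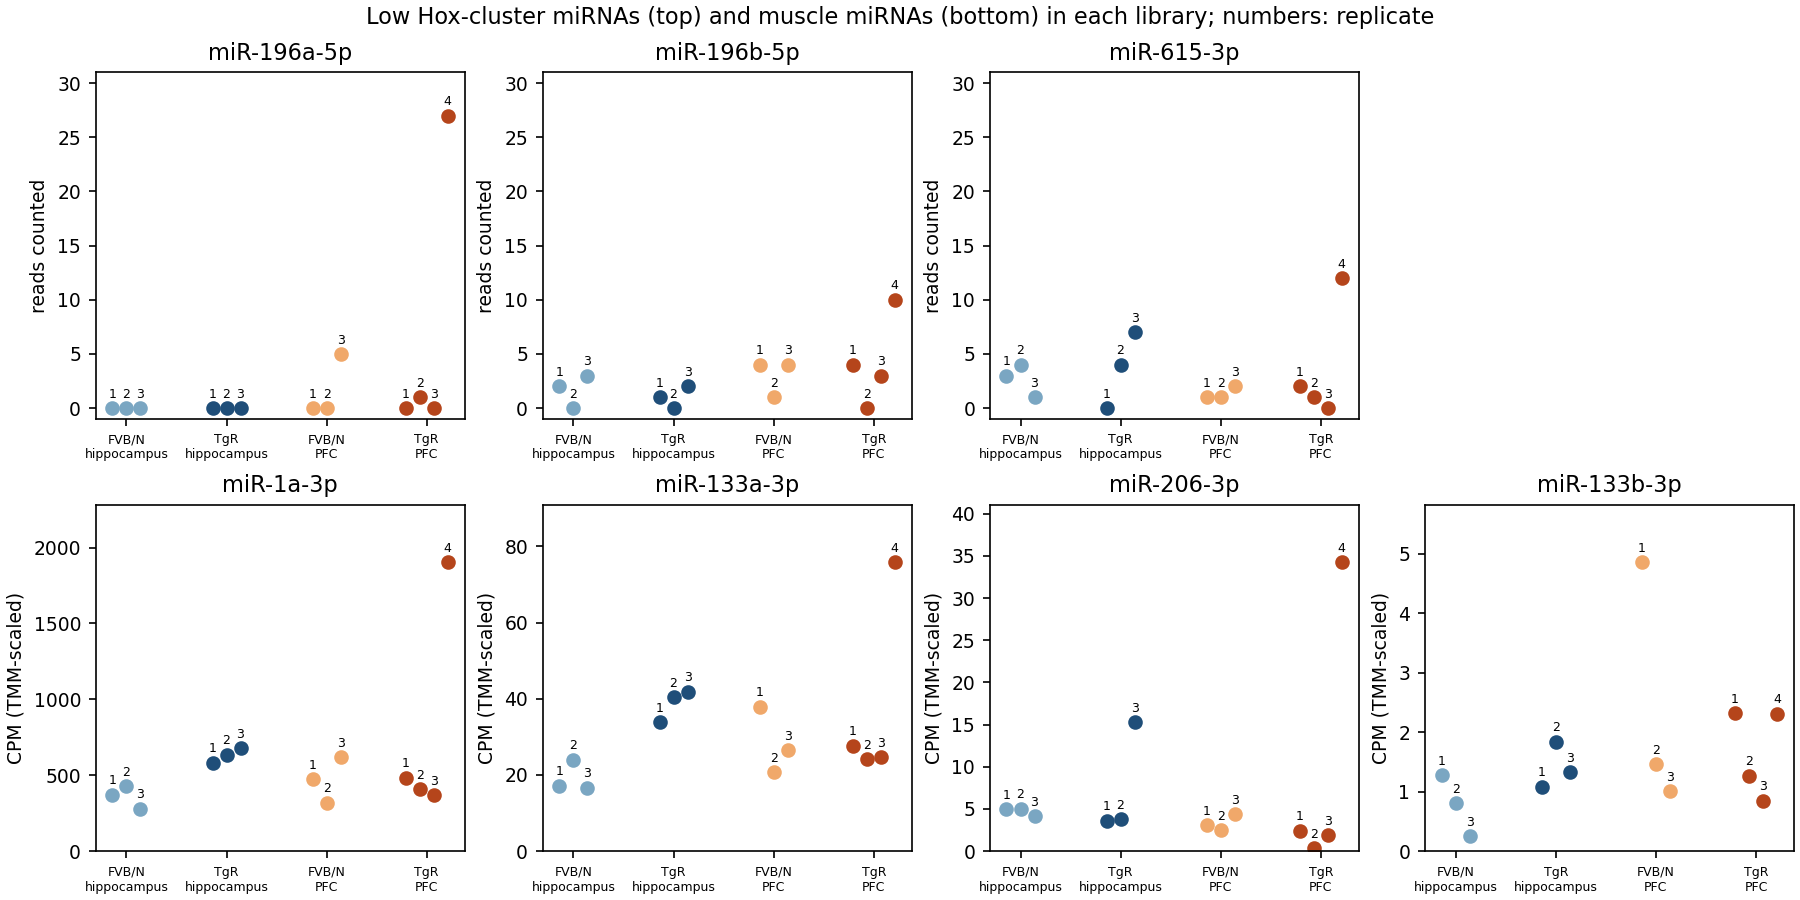
Reads counted for miR-196a-5p, miR-196b-5p and miR-615-3p (top row) and TMM-scaled CPM of the 4 muscle miRNAs (bottom row) in each library, with replicate numbers. TgR PFC replicate 4 is highest in all panels but that of miR-133b-3p, with 27, 10 and 12 counts and 1903, 75.8 and 34.2 CPM.

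The miRNAs that varied most like the pair were found by Pearson's r of log2(CPM + 0.5) deviations from the 4 group means over the 13 libraries, among 389 candidates with a mean of at least 10 CPM. This is a description of libraries that share depth and dissection, with no test. miR-10b-5p was followed most closely by miR-148a-3p (r = 0.903, Spearman's rho 0.835), then by miR-10a-5p (r = 0.759), miR-145a-3p (r = 0.730), miR-423-5p (r = 0.729) and miR-126a-3p (r = 0.689). The last and miR-145a-3p come from genes known from vessels, and the other arms of these genes were not among the 5 most alike. miR-126a-5p was at 364 CPM in TgR PFC replicate 4, the lowest of its group, and miR-145a-5p at 147 CPM in FVB/N hippocampus replicate 3, also the lowest of its group, where miR-10b-5p was highest in each case. miR-143-3p, of the vessel list below, was in the order of miR-10b-5p in both hippocampal groups. It was at 3399, 3572 and 4312 CPM in FVB/N and at 3755, 3006 and 3823 CPM in TgR hippocampus. In TgR PFC it was lowest, at 4244 CPM, in replicate 4, where miR-10b-5p was highest. miR-148a-3p was at 8814, 8860 and 17620 CPM in FVB/N hippocampus and at 5506, 3864 and 5191 CPM in TgR hippocampus. Its high library in FVB/N and its low library in TgR were also those of miR-10b-5p. With the group means kept in, r of the levels was only 0.192 for miR-148a-3p and 0.0424 for miR-423-5p. It was 0.850 for miR-145a-3p, 0.546 for miR-126a-3p and 0.523 for miR-10a-5p. Without a group at a time, r with miR-148a-3p ran from 0.806 to 0.935, with miR-145a-3p from 0.551 to 0.872, with miR-423-5p from 0.646 to 0.873 and with miR-126a-3p from 0.454 to 0.759. By rho, miR-145a-3p was in place 13 and miR-126a-3p in place 15.

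miR-10a-5p was most like miR-383-5p (r = 0.829, Spearman's rho 0.676), miR-1224-5p (r = 0.779), miR-146a-5p (r = 0.779), miR-10b-5p (r = 0.759) and miR-31-5p (r = 0.730). miR-383-5p was at 527, 939 and 867 CPM in FVB/N hippocampus and at 482, 306, 463 and 399 CPM in TgR PFC. In both groups its lowest library was also the lowest for miR-10a-5p. With the group means kept in, r of the levels was 0.0183 for miR-383-5p, 0.400 for miR-1224-5p, 0.536 for miR-146a-5p and 0.285 for miR-31-5p. By rho of the deviations miR-383-5p was in place 16 of 389. Without a group at a time, r with miR-383-5p ran from 0.794 to 0.877, with miR-1224-5p from 0.482 to 0.887, with miR-146a-5p from 0.696 to 0.895 and with miR-31-5p from 0.610 to 0.815. With the FVB/N hippocampus libraries left out, r between miR-10a-5p and miR-10b-5p was 0.466.

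**Figure D5:**
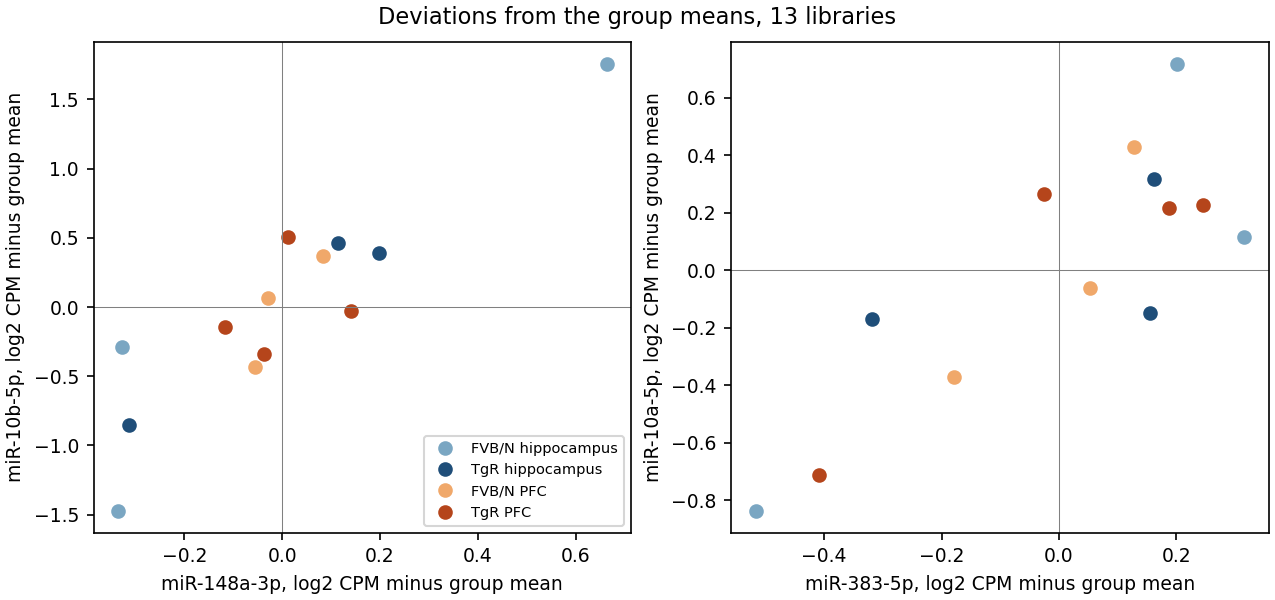
Deviation of log2 CPM from the group mean for miR-10b-5p against miR-148a-3p (left, r = 0.903) and miR-10a-5p against miR-383-5p (right, r = 0.829). Each point is a library, coloured by group. The point at the upper right of the left panel is FVB/N hippocampus replicate 3.

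The relatives outside the Hox clusters were far more abundant. miR-99a-5p ran from 42172 to 96775 CPM, miR-100-5p from 2642 to 4733 and miR-99b-5p from 3024 to 4493. In FVB/N hippocampus miR-99a-5p was at 96775, 71036 and 91932 CPM, in TgR hippocampus at 62735, 46892 and 52180. All FVB/N values were above all TgR values. edgeR called miR-99a-5p lower in TgR hippocampus (log2 fold change -0.71, SE 0.15, Benjamini-Hochberg adjusted p = 0.0304) and higher in hippocampus than in PFC in FVB/N (0.94, SE 0.14, adjusted p = 0.00251). It called neither of the other relatives in any planned comparison. FVB/N hippocampus replicate 1 had the highest miR-99a-5p level of the series and the lowest levels of miR-10a-5p and miR-10b-5p.

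Other tissues that a dissection could hold were described by lists of known marker miRNAs. The neuronal list (6 of 6 read, led by miR-128-3p) summed to 292857 to 442748 CPM. The oligodendrocyte list (3 of 3, led by miR-219a-2-3p) was at 2040, 2409 and 1484 CPM in FVB/N hippocampus, 2374, 2297 and 3686 in TgR hippocampus, 973, 795 and 603 in FVB/N PFC, and 641, 750.5, 680.0 and 773 in TgR PFC. It was thus higher in every hippocampal library than in any PFC library. The geometric mean of the miR-10 ratio was also higher in hippocampus. Within hippocampus that mean was 2.98 in TgR and 6.93 in FVB/N, while the list had a median log2 fold change of 0.60 in TgR against FVB/N. The part of this tissue in the ratio was not tested. The choroid plexus list (6 of 6, led by miR-204-5p) was at 2008, 1362 and 1468 CPM in FVB/N hippocampus and at 8446, 1979 and 6849 in TgR hippocampus, at 1265, 892 and 988 in FVB/N PFC, and at 953, 1052, 1065 and 1325 in TgR PFC. The sum of the choroid plexus list, too, was higher in every hippocampal library than in any PFC library, by a narrow margin (1362 against 1325 CPM). Not every member separated the regions in this way. In TgR PFC the libraries of this list were in the order of miR-10b-5p. In TgR hippocampus and FVB/N PFC the lowest library was the same for both. In FVB/N hippocampus its highest library, replicate 1, was the lowest of miR-10b-5p.

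The vessel list (4 of 4, led by miR-126a-3p) was at 20903, 19553 and 28769 CPM in FVB/N hippocampus, 20511, 17356 and 19973 in TgR hippocampus, 31428, 22206 and 25749 in FVB/N PFC, and 26682, 24119.6, 26207 and 24305 in TgR PFC. Its highest library was that of miR-10b-5p in FVB/N hippocampus only, and in TgR PFC it was highest in replicate 1, the lowest of miR-10b-5p. The lowest library was the same for both in TgR hippocampus and FVB/N PFC, replicate 2 in each. The list for mesenchyme and meninges (4 of 4, led by miR-199a-3p) was at 262, 336 and 341 CPM in FVB/N hippocampus, 384, 219 and 290.3 in TgR hippocampus, 287, 177 and 305 in FVB/N PFC, and 397, 343, 375 and 295 in TgR PFC. In both FVB/N groups its libraries were in the order of miR-10b-5p, and the lowest library of TgR hippocampus was the same for both. In TgR PFC the highest library of miR-10b-5p, replicate 4, was the lowest of this list. Its median log2 fold change in PFC was 0.48, with 0 of 4 called. miR-199a-3p and miR-199b-3p had nearly equal counts in every library (871 and 870 in FVB/N hippocampus replicate 1), so the sum holds these reads under both names, and so does that of red blood cells for miR-486a-5p and miR-486b-5p (3586 and 3683 there). The other lists ran as follows: red blood cells (5 of 5, led by miR-451a) from 989.9 to 4184, white blood cells (4 of 4, led by miR-150-5p) from 618 to 735 in hippocampus and from 772 to 1080.2 in PFC, and epithelium (7 of 7, led by miR-203-3p) from 185 to 324 in PFC. In hippocampus the epithelial list was at 329, 868 and 703 CPM in FVB/N and at 390.0, 359 and 219 in TgR. Its lowest library of FVB/N hippocampus, replicate 1, was also the lowest of miR-10a-5p and miR-10b-5p, and its highest of FVB/N PFC, replicate 3, was also their highest. In TgR the lowest epithelial libraries, replicate 3 of hippocampus and replicate 4 of PFC, were instead the highest of both miRNAs. In TgR hippocampus against FVB/N, edgeR called 3 of 5 tested choroid plexus miRNAs, 2 of 4 muscle miRNAs and 1 of 3 oligodendrocyte miRNAs higher and 4 of 5 red blood cell miRNAs lower, against 4.85% of all 619 tested called in either direction, while in PFC it called 0 miRNAs of any list. The red blood cell calls include both miR-486a-5p and miR-486b-5p. Between regions, averaged over genotypes, edgeR called 3 of 3 oligodendrocyte and 3 of 5 choroid plexus miRNAs higher in hippocampus, 3 of 4 white blood cell and 3 of 5 red blood cell miRNAs lower, and of 7 epithelial miRNAs 3 higher and 2 lower, against 19.2% of all 647 tested called in either direction. The white blood cell sum was lower in every hippocampal library than in any PFC library, and miR-10b-5p had a lower mean there. Within groups, the sum was lowest in FVB/N hippocampus replicate 3 (618 CPM) and TgR PFC replicate 4 (802), the highest of miR-10b-5p in each. In TgR hippocampus its highest library, replicate 2 (735), was the lowest of miR-10b-5p. In FVB/N PFC the lowest library, replicate 2, was the same for both. The part of these tissues in the levels of miR-10a-5p and miR-10b-5p was not tested.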

How the data were processed

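FastQC (quality) and miRExpress (alignment, on miRBase) were run by the authors, who deposited raw counts for each pair of hairpin and mature miRNA; pairs with no read were taken as 0. Of 1514 pairs, 1 row per mature miRNA was kept (1384), at the hairpin with the most reads, because the 71 mature miRNAs with several hairpins are listed at each. Groups came from the sample titles. Libraries of a group differed by more than sampling noise (chi-square per degree of freedom 42.5 to 503). Counts were tested with edgeR 4.0.16 in R 4.3.3 (TMM, filterByExpr with a minimum of 10 counts, quasi-likelihood test, Benjamini-Hochberg adjustment over all tested miRNAs, threshold 0.05). Each region was fitted by itself for genotype, and all 13 libraries in 4 groups for the other comparisons. Standard errors are the log2 fold change over the square root of F. p-values measure the spread between these animals. Ratios were tested with exact permutation tests in scipy 1.17.1.

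As alternatives, the test was changed to DESeq2 1.42.0, TMM to the size factors of DESeq2 or to none, the table to all deposited pairs or to sums over hairpins, the fit to all libraries or to a replicate block, the filter was dropped, and each library was left out. The named miRNAs are all arms of the 6 hairpins, the mature arms of mir-99a, mir-99b and mir-100, the 5 miRNAs most like each of miR-10a-5p and miR-10b-5p, and members of marker lists by count and range with the most abundant of each; the muscle miRNAs were named after their values were seen. Members and lists were chosen with earlier results of these data known. Sequences are from RefSeq (GRCm38.p6) and positions from GENCODE M21. The scripts were tested on simulated data.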

Additional observations from a re-analysis of the deposited data

Results flagged for a closer look

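In TgR PFC, the group with 4 libraries, 33 values were searched for a library far from the other 3, and 7 were found. The cut used would flag about 1 in 20 independent, normally distributed values. The values searched were not of that kind: some counts were near 0, and the muscle miRNAs were named after their values were seen. The 7 are therefore not set against that rate. Groups of 3 libraries were not searched. In TgR PFC replicate 4, miR-196a-5p was at 2.60 CPM against 0 to 0.182 in the other 3 libraries. The same library was at 1903 CPM of miR-1a-3p against 367 to 484, at 75.8 CPM of miR-133a-3p against 24.2 to 27.7, and at 34.2 CPM of miR-206-3p against 0.363 to 2.42. The summed muscle list was therefore also apart, at 2015 CPM against 394 to 516. In TgR PFC replicate 2, the library with the lowest total count, miR-10a-5p was at 32.0 CPM against 61.3 to 63.5, and the summed white blood cell list at 1080.2 CPM against 802 to 847. Values flagged in a library are not independent of each other, and what sets either library apart was not tested.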

How the results depend on the processing

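Of 522 values, each a result under an alternative, 468 were close to the main value or kept its direction and its side of the threshold. In hippocampus, miRNAs called between genotypes numbered 30, with 48 by DESeq2, 64 with no filter, and 2 to 18 with a library left out. The log2 fold change there ran from -0.64 to 0.13 for miR-10a-5p and from -0.0391 to 1.92 for miR-10b-5p with a library left out. For the difference of genotype effects, 3 were called, 10 by DESeq2, 16 with no filter and 2 to 8 with a library left out, and the value of miR-10b-5p ran from -0.84 to 1.15. Between regions, leaving a library out gave 24 to 50 called in FVB/N with 0 to 1 member, 29 to 75 in TgR, and 0 to 1 member averaged over genotypes, where miR-10a-5p ran from -0.17 to 0.22 and also reversed to -0.04 without TgR hippocampus replicate 3, to -0.03 without FVB/N PFC replicate 2 and to -0.02 without TgR PFC replicate 2. With no filter, miR-10b-5p and miR-196a-5p were called in TgR, and these and miR-10b-3p averaged over genotypes. In all libraries together miR-196a-5p has 33 counts and miR-10b-3p 15. These calls were not set against the share of all miRNAs called in the same fits, and their cause was not tested.

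With a replicate block, which pairs libraries of the same number, 19 were called in hippocampus and 11 for the difference of genotype effects, the latter with miR-10b-5p at 0.25, and 1 member, miR-10b-5p, averaged over genotypes. Between the regions of a genotype, libraries of the same number correlated beyond their group at 0.13, 0.07 and 0.21 in FVB/N and at 0.10, 0.43 and -0.17 in TgR. Between genotypes, where a number cannot mark the same mouse, the correlations ran from -0.19 to 0.43. These few values do not decide whether the numbers pair the regions, and the block is not used for the main results. The numbers are those of the titles, and the deposited count tables of FVB/N PFC number 2 of the 3 libraries differently. Depth limits miR-196a-5p, miR-196b-5p and miR-615-3p, most of whose counts were at or under 3. With 3 or 4 animals per group, only large differences can be told from 0.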

Other observations

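FVB/N hippocampus replicates 1 and 3 were the extremes of several members. Replicate 1 had the lowest level of the 13 libraries for both miR-10a-5p (27.0 CPM) and miR-10b-5p (2.29 CPM), and replicate 3 had the highest level of miR-10a-5p (80.2 CPM) and the highest count of miR-10a-3p (14). The total counts of these libraries were close, at 8365147 and 8247254, so depth differed little between them. The members as a whole took 0.00281% of the counts of replicate 1 and 0.0104% of those of replicate 3. Replicate 3 also had the highest miR-148a-3p level of the series, 17620 CPM.

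FVB/N PFC replicate 3 and TgR PFC replicate 4 were the only libraries with more than 1 count of miR-196a-5p.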
